A study of Mus musculus with 4 samples.

Results

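Long intergenic noncoding RNAs (lincRNAs) that were well counted in mouse heart at postnatal day 14 were described across 4 RNA-seq libraries. Members were the rows with the lincRNA biotype in GENCODE M21 on chromosomes 1 to 19 that held at least 300 counts over all 4 libraries, leaving out the imprinted genes H19 and Meg3. The rule took 52 of 4979 such lincRNA rows, of which 1581 had at least 1 count, in a table of 54752 rows. Members were thus selected on their summed raw counts over both genotypes, and all 52 passed the filter on low counts. The libraries came from whole heart, 2 from wild-type mice and 2 labelled Carm1 mutant. Carm1 encodes an arginine methyltransferase, studied in this series for its part in cardiac maturation. For the allele, the strain and any Cre driver nothing was found in the labels. Since it is also unstated whether replicates were different hearts, p-values here reflect only how far these libraries spread, which may be technical.

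A lincRNA is transcribed from its own locus between protein-coding genes, and is usually spliced and polyadenylated. Some act in the nucleus: Neat1 is the scaffold of paraspeckles, nuclear bodies that hold RNA-binding proteins such as Nono and Sfpq, and Malat1 collects at nuclear speckles with splicing factors. Others act in the cytoplasm by binding microRNAs or RNA-binding proteins, serve as hosts from which small RNAs are cut, or have no assigned function. In the heart, Bvht (Braveheart) is known from work on cardiac lineage commitment. Carm1 is known to methylate Nono, a paraspeckle protein.

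Library totals were 21719161 and 20778420 counts in wild-type replicates 1 and 2, and 22217442 and 11677604 in mutant replicates 1 and 2. Levels below are counts scaled by TMM to a common library size (CPM), and each series of 4 values is in that order. Carm1 itself had 45.9, 52.4, 35.8 and 31.8 CPM, lower in both mutant libraries than in either wild-type library, but with a log2 fold change of −0.54 (SE 0.19) and an edgeR FDR of 0.114 it did not pass the threshold of 0.05. The inactive-X transcript Xist had 0.686 and 0.766 CPM in wild type, against 324 and 289 CPM in the mutant libraries, while the Y-linked gene Uty had 9.72 and 14.8 CPM in wild type and 0 in both mutant libraries. Genotype and sex therefore cannot be told apart in any comparison here. The summed level of 6 cardiomyocyte markers was 62370 and 59549 CPM in wild type, against 32370 and 33358 CPM in the mutant libraries. Of these 6, 1 was called lower by edgeR and by limma-voom and 6 by DESeq2, and 6 had an unadjusted edgeR p under 0.05. The sum of 7 fibroblast markers was 2902 and 3340 against 4877 and 5173 CPM, with 1 called higher by edgeR, 2 by DESeq2 and 4 at that unadjusted p. The sum of 6 endothelial markers was 946 and 1255 against 1664 and 1425 CPM, with 0 called by edgeR, 2 by DESeq2 and 2 at the unadjusted p. Of 5 atrial genes tested, edgeR called Myl7 (log2 fold change −2.04) and Myl4 (−1.70) lower and Nppa (1.07) higher, and the atrial gene Bmp10 had 0, 690, 2 and 2 counts, nearly all in wild-type replicate 2. In whole tissue, fewer cells of a type and less RNA per cell cannot be told apart, and the part of cell composition in the lincRNA values was not tested. Markers of macrophages summed to between 147 and 189 CPM, with 0 of 6 called by edgeR, DESeq2 or limma-voom and 1 at an unadjusted edgeR p under 0.05. Among markers of neighbouring organs, liver Alb, lung Sftpa1 and Sftpc and skeletal muscle Myh1 and Myh4 were at 0 in every library. Some others of these lists were low but not at 0, such as lung Sftpb with 1, 1, 11 and 6 counts. Skeletal muscle Mylpf had 45, 22, 53 and 49 counts and Actn3 14, 2, 5 and 0. Ckm, also in the skeletal muscle list, was not low, with 37475, 25076, 19799 and 10822 counts. In the brown adipose list Cidea had 1208, 892, 794 and 548 counts and Ucp1 33, 4, 0 and 0.

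Of the 52 lincRNAs, 1 was higher (Neat1) and 5 were lower in the mutant libraries at an FDR of 0.05 (edgeR quasi-likelihood test, Benjamini-Hochberg over all 15283 genes tested). That is 11.5% of the members, against 7.37% of all genes tested, 2.79% higher and 4.58% lower. An unadjusted p under 0.05 was reached by 9 members (17.3%) in the higher direction and 12 (23.1%) in the lower, against 13.1% and 14.7% of all genes tested. The groups did not overlap for 12 members that were higher and 19 that were lower in mutant, where such separation was found for 30.3% and 28.7% of all genes, or 59% in either direction. For this separation the members' share in either direction was close to that of all genes. It was below that of all genes in the higher direction and above it in the lower direction. At the unadjusted p the members' share was above that of all genes in both directions. The members' median log2 fold change was −0.19, against 0.02 over all genes tested, and single values ran from −1.68 to 1.79. Just inside the count threshold stood Gm19277 with 308 counts and 4632428C04Rik with 311, and just outside it D830026I12Rik with 295 and Gm31013 with 293. Gm19277 had 107 and 117 counts in wild type against 61 and 23 in mutant, and 4632428C04Rik 130 and 101 against 63 and 17. A gene near the threshold can thus pass through the group where it is high, so the members' share of calls is not independent of the rule. The counts of calls moved with the libraries used: without wild-type replicate 1 there were 6 higher and 7 lower members, without wild-type replicate 2 there were 13 and 18, without mutant replicate 1 there were 3 and 4, and without mutant replicate 2 there were 3 and 2. The share of all genes called moved with them, to 14.3%, 35.5%, 2.67% and 2.39%. Scaling by library totals alone gave 4 higher and 0 lower members, and moved the median of all genes to 0.41.

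**Figure D1:**
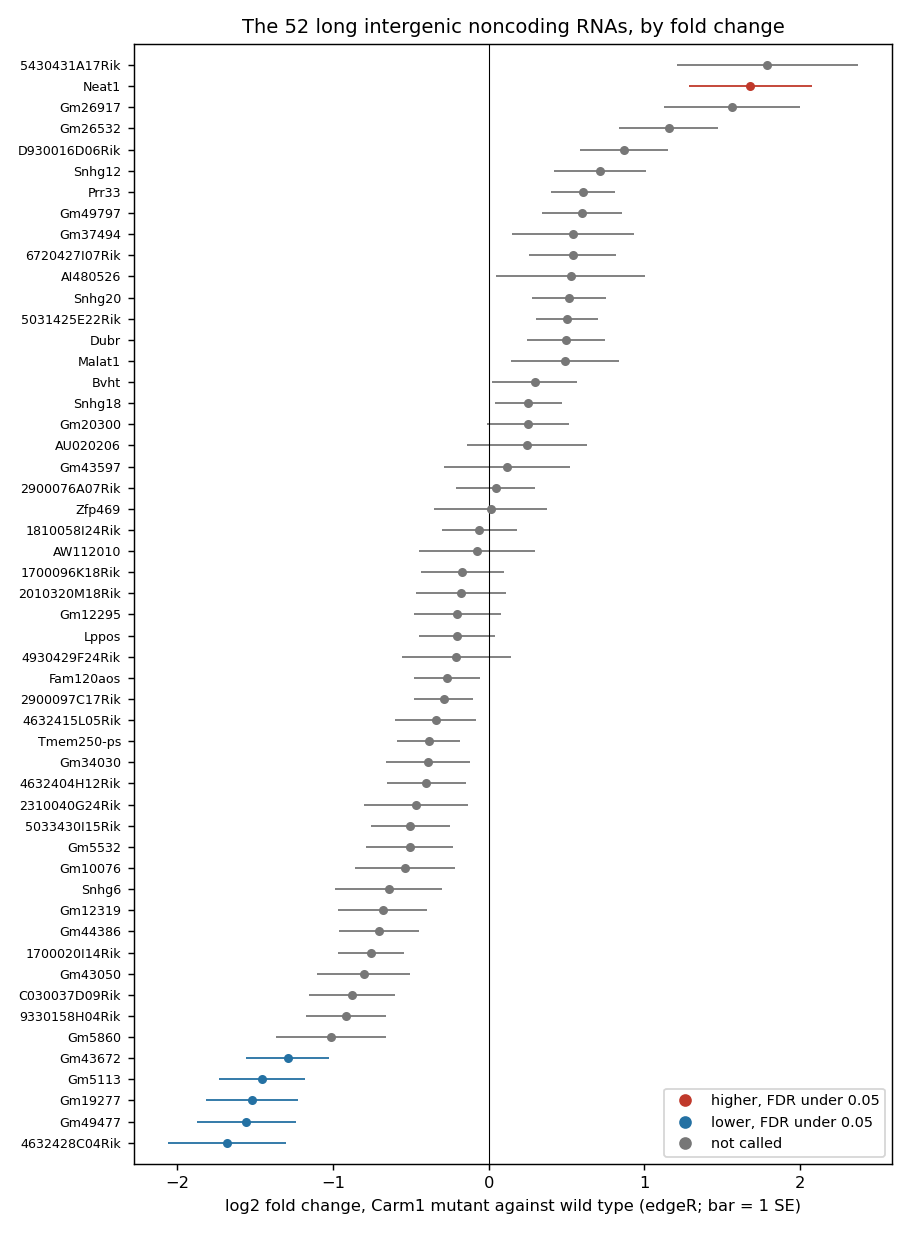
Log2 fold change of mutant over wild type (horizontal axis) for each of the 52 lincRNAs, sorted, with bars of 1 standard error and coloured by the edgeR call at an FDR of 0.05. Neat1 is the called member above 0, second from the top, the 5 members called lower stand at the bottom, and 22 members lie above 0 and 30 below.

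Neat1 (ENSMUSG00000092274, GRCm38 chr19:5824708-5845478, minus strand) makes a short polyadenylated transcript and a long one from almost the same start, and the long form is the one that builds paraspeckles. GENCODE gives them 3004 and 20771 bases, and Malat1 (ENSMUSG00000092341, chr19:5795690-5802672, minus strand) lies beside them on the same strand. The last 80 annotated bases of both forms and of the longest Malat1 transcript are shown because the ends distinguish the forms, with the polyadenylation signal AATAAA in capitals where it occurs. They lie at chr19:5824708-5824787 for the long form, chr19:5842307-5842386 for the short form and chr19:5795690-5795769 for Malat1, all on the minus strand.
Neat1 long form: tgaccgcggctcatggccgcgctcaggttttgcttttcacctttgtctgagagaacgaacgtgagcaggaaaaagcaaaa
Neat1 short form: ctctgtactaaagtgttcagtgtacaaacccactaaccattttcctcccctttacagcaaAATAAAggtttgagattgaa
Malat1: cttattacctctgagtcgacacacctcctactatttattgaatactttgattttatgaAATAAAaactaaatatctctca
The end of the short form holds the signal and the end of the long form does not. The annotated end of Malat1 holds it too, but whether it is used there was not measured. The long form is known to be cut at its end rather than polyadenylated in the usual way. Whether these libraries were selected for poly(A) is not stated in the labels.

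Neat1 had 1480 and 4047 counts in wild type, against 13035 and 5626 in the mutant libraries, or 84.6, 207, 520 and 414 CPM. Both mutant libraries were above both wild-type libraries, and the wild-type libraries themselves differed by 1.29 on the log2 scale. The means were 146 ± 86.3 CPM (SD, n = 2) in wild type and 467 ± 74.7 CPM (SD, n = 2) in mutant. The log2 fold change was 1.68 (SE 0.39, edgeR FDR 0.0437). Neat1 was called higher under all 16 alternative fits, with log2 fold changes from 1.16 to 2.43. These fits reuse the same 4 libraries, and with DESeq2 size factors the edgeR FDR of Neat1 was 0.0453, near the threshold. The counts are per gene, so the short and the long form cannot be separated. Malat1 had 226, 495, 486 and 526 CPM, with wild-type replicate 1 below the other 3 libraries and wild-type replicate 2 between the mutant values. Its log2 fold change was 0.49 (SE 0.35, edgeR FDR 0.400). Without wild-type replicate 1 the Malat1 value was 0.02 and without wild-type replicate 2 it was 1.12, which was called.

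Genes for the proteins of both nuclear bodies were set beside them. Of 15 paraspeckle protein genes tested, 0 were called in either direction by edgeR, and 1 reached an unadjusted p under 0.05, in the higher direction, with a median log2 fold change of −0.03. Nono, which pairs with Sfpq in the paraspeckle core, had a log2 fold change of −0.08, Sfpq −0.11 and Pspc1 −0.47 (edgeR FDR 0.187). Of 17 nuclear speckle genes, 0 were called by edgeR, 3 reached an unadjusted p under 0.05, all higher, and the median was 0.36. Their summed level was 1376, 2112, 2443 and 2108 CPM, low in wild-type replicate 1 as Malat1 was. Of 19 genes that act in the decay of noncoding transcripts 0 were called by edgeR and 2 reached an unadjusted p under 0.05, both lower, with a median of 0.04. DESeq2 and limma-voom also called 0 genes of these 3 lists.

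**Figure D2:**
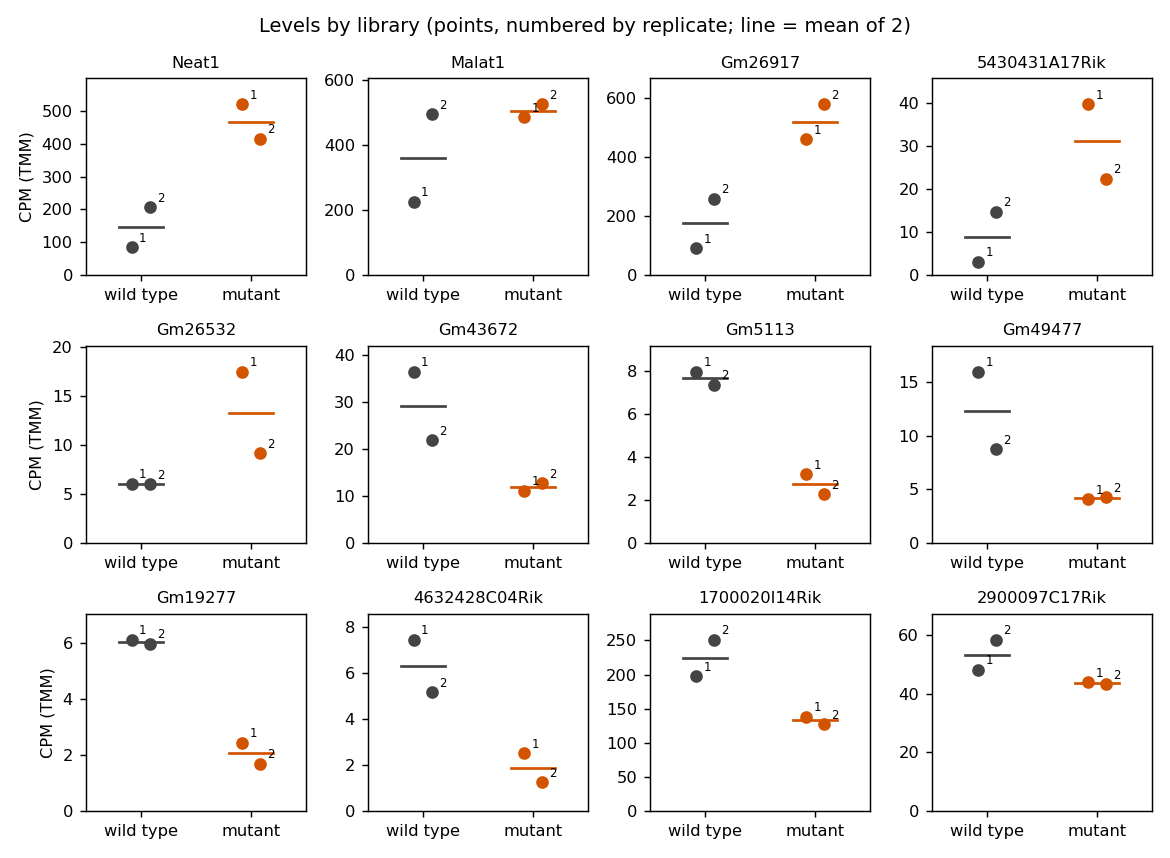
TMM-scaled CPM of 12 named lincRNAs, 1 panel per gene with its own linear axis from 0, with a point for each library numbered by replicate and a line at the group mean. Neat1 and Gm26917 are above wild type in both mutant libraries, Malat1 is low in wild-type replicate 1 only, and the 5 called lower members are below both wild-type values in both mutant libraries.

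The 5 members that fell were all of low or middling abundance, and none of the 5 shares exon bases with another annotated gene. Gm43672 (ENSMUSG00000106019, chr3:22074412-22076142, minus strand, 1 exon) had 36.4, 21.9, 11.1 and 12.7 CPM. Both mutant values were well below both wild-type values, although the wild-type libraries differed between themselves. Its log2 fold change was −1.29 (SE 0.27, edgeR FDR 0.0318). Gm49477 (ENSMUSG00000116066, chr15:103135881-103140669, plus strand) had 15.96, 8.73, 4.11 and 4.27 CPM. The mutant libraries stood together and the wild-type libraries were spread, with a log2 fold change of −1.56 (SE 0.32, edgeR FDR 0.0301).

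Gm5113 (ENSMUSG00000066647, chr7:30169875-30182324, plus strand) had 7.95, 7.35, 3.19 and 2.28 CPM, and a log2 fold change of −1.46 (SE 0.27, edgeR FDR 0.0256). Gm19277 (ENSMUSG00000115924, chr15:85149254-85156132, minus strand) had 6.12, 5.98, 2.43 and 1.69 CPM, and a log2 fold change of −1.52 (SE 0.30, edgeR FDR 0.0271). In both genes the wild-type libraries were close and the groups well apart. 4632428C04Rik (ENSMUSG00000097184, chr16:30008667-30021430, plus strand) had 7.43, 5.16, 2.51 and 1.25 CPM and a log2 fold change of −1.68 (SE 0.38, edgeR FDR 0.0394), on 130, 101, 63 and 17 counts. No function is assigned to these 5 genes here. With scaling by library totals alone all 5 kept their direction but none passed, with edgeR FDR between 0.0525 and 0.0659. Without mutant replicate 2, the library with the smallest total, 4632428C04Rik, Gm19277 and Gm5113 no longer passed (edgeR FDR 0.129, 0.140 and 0.132), and without mutant replicate 1 Gm43672 did not (edgeR FDR 0.104).

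RefSeq promoter windows (GRCm38.p6, 250 bases before to 50 after the start) were available for 3 of the 6 called members, all 3 of them lower in mutant, and are shown as the sequence nearest to the change. The RefSeq start matched the GENCODE start in each. The capitals mark the E-box CACGTG, which is its own reverse complement, or the CCAAT box on either strand. The windows are chr7:30169625-30169924 (plus strand) for Gm5113, chr15:85156083-85156382 (minus strand) for Gm19277 and chr16:30008417-30008716 (plus strand) for 4632428C04Rik.
Gm5113: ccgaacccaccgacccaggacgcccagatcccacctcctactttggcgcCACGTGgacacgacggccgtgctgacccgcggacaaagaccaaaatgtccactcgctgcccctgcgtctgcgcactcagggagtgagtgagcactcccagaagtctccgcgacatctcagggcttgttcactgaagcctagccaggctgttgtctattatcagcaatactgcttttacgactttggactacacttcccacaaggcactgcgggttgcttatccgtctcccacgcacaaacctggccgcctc
Gm19277: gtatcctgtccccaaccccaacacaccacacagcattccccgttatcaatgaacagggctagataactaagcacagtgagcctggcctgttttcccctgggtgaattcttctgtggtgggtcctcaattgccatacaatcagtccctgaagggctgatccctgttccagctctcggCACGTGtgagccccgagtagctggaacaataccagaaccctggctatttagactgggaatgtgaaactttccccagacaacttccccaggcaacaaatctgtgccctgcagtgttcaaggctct
4632428C04Rik: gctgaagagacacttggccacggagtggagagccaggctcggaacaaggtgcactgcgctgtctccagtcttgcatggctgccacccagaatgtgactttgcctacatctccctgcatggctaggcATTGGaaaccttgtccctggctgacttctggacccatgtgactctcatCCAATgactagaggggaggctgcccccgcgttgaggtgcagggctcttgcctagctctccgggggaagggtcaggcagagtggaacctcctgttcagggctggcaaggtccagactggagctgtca
The E-box occurred at 1 place each in the windows of Gm5113 and Gm19277, and the CCAAT box at 2 places in that of 4632428C04Rik. Of all 32851 RefSeq promoter windows of the same length, 7.15% held the E-box and 37.4% held the CCAAT box. Among the 30 members with a window, 5 held the E-box and 8 the CCAAT box. The TATA box, searched as TATAAA, was found in 2 of these 30 windows and in 13.6% of all windows. The GC box, searched as GGGCGG, was found in 14 of them and in 35.7% of all windows, and the nuclear receptor element AAGGTCA in 1 of them and in 4.72% of all windows. Each was searched on both strands. The Gm5113 window held 20 CG pairs against a median of 7 over all windows, and those of Gm19277 and 4632428C04Rik held 4 and 6.

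Several members had large values that did not pass. 5430431A17Rik had the highest log2 fold change of all members, 1.79 (SE 0.58, edgeR FDR 0.0974), from 3.20, 14.8, 39.8 and 22.5 CPM. Wild-type replicate 1 was far below replicate 2, a difference of 2.17 on the log2 scale, which exceeds the change between groups. Gm26917 (chr17:39843013-39846341, plus strand) had 91.6, 259, 460 and 579 CPM and a log2 fold change of 1.57 (SE 0.44, edgeR FDR 0.0682). Both mutant values of Gm26917 were above both wild-type values. This locus ends 13 bases before Rn18s-rs5, which RefSeq lists as an 18S ribosomal RNA pseudogene, and its exons are 69.8% GC against a member median of 48.1%. The part of ribosomal RNA reads in the Gm26917 counts was not tested. Of the 16 alternative fits, 8 called 5430431A17Rik, 8 called Gm26917 and 10 called Gm26532, a member described below with its microRNA cluster.

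Among the other members with separated groups and higher mutant values, D930016D06Rik had 4.23, 6.89, 11.1 and 9.28 CPM (log2 fold change 0.87, edgeR FDR 0.0967) and Prr33 had 13.9, 17.1, 25.4 and 21.7 CPM (0.61, edgeR FDR 0.106). On the other side, 9330158H04Rik had 18.9, 12.1, 8.10 and 8.32 CPM (−0.92, edgeR FDR 0.0695), C030037D09Rik had 7.78, 12.2, 5.10 and 5.82 CPM (−0.88, edgeR FDR 0.0918) and Gm5860 had 7.03, 5.52, 2.19 and 4.20 CPM (−1.01, edgeR FDR 0.114). None of these 5 passed the threshold, and of the 52 members 23 had a log2 fold change within 0.5 of 0. The genes named in these sentences were chosen after their values were seen. So were 5430431A17Rik, Gm26532, Gm43050, Bvht, Dubr, Prr33, AI480526 and 6720427I07Rik elsewhere, and the called neighbours Tbx5, Chrm2, Msi2, Lsp1 and Fsd2.

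Levels of different lincRNAs were compared as CPM per kilobase of exon. The highest mean was that of Gm26917 at 104.3 CPM per kb, from 27.5 in wild-type replicate 1 to 174 in mutant replicate 2. Malat1 followed at 62.1 CPM per kb, with 32.4, 70.9, 69.6 and 75.3. Gm10076 came next at 56.2 CPM per kb (83.6, 49.2, 34.6 and 57.3), and 1810058I24Rik at 51.1 (62.2, 42.1, 46.4 and 53.7). The library ranges of Gm26917, Malat1, Gm10076 and 1810058I24Rik overlap, so the order of these 4 is not separated beyond the spread, and in wild-type replicate 1 Gm26917 was the lowest of them. Tmem250-ps at 25.5 and 1700020I14Rik at 21.5 CPM per kb came next, followed by Gm12319 at 18.1 and Gm44386 at 15.1. Among these, the library range of each overlaps that of the next, so adjacent ranks are not separated beyond the spread. Neat1 ranked 10th on this scale at 14.7 CPM per kb (4.08, 9.95, 25.0 and 19.9), since its long form makes its exonic length the greatest of all members. In these units Neat1 was below Malat1 in every library. That order rests on an exonic length of 20771 bases for Neat1, while the mix of its short and long forms is not known. In CPM without division by length, Neat1 was above Malat1 in mutant replicate 1 (520 against 486) and below it in each other library.

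**Figure D3:**
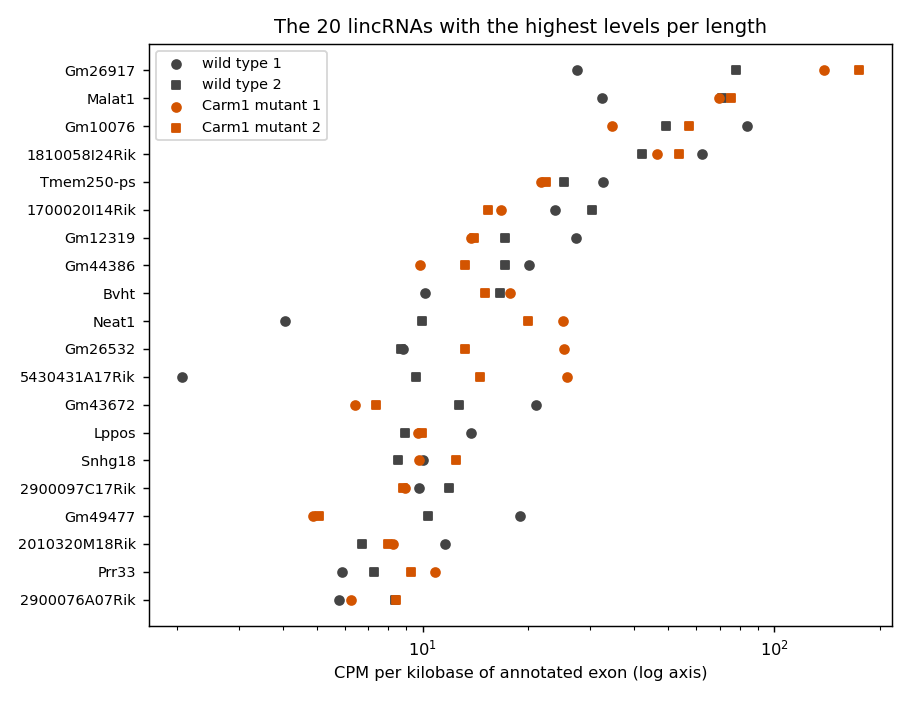
Level of the 20 most abundant lincRNAs in CPM per kilobase of exon (log axis), 1 point per library, with colour for the group and shape for the replicate. Gm26917 is highest on average at 104.3 and runs from 27.5 to 174, while 1810058I24Rik lies between 42.1 and 62.2.

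The biotype did not always match RefSeq. Of the 52 members 37 were matched by symbol, 32 of them as noncoding RNA, 3 as protein coding and 2 as pseudogenes. The protein-coding entries are 1810058I24Rik, known as Stmp1, which encodes a small mitochondrial peptide, Tmem250-ps and Zfp469. 1810058I24Rik had 173, 117, 129 and 149 CPM, with mutant values inside the wild-type range, and a log2 fold change of −0.06 (SE 0.24, edgeR FDR 0.896). Tmem250-ps had 80.8, 62.6, 53.8 and 55.9 CPM (log2 fold change −0.39, SE 0.20, edgeR FDR 0.258). Gm10076, a single-exon gene listed as a pseudogene, is 99.5% identical to Rpl41, a ribosomal protein gene with 21166 counts, so its 32.08, 18.9, 13.3 and 22.02 CPM are uncertain. Close copies over at least 50% of the transcript were also found for 2900097C17Rik (Gm7292, which had 35 counts) and Gm49797 (Cd2ap). Gm12319 and Gm44386, both under 500 bases of exon, had log2 fold changes of −0.68 and −0.71 (edgeR FDR 0.170 and 0.126).

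1700020I14Rik, the mouse Cyrano gene (ENSMUSG00000085438, chr2:119594297-119607502, plus strand), is known for a conserved site that pairs extensively with miR-7 and triggers the decay of this microRNA. The site was found in the longest transcript of this gene at bases 2935 to 2959 (chr2:119602137-119602161, plus strand). It is shown with the microRNA, whose seed (bases 2 to 8) is in capitals, and capitals in the site mark the 13 bases that pair with the 3′ end of miR-7a and the match to its seed region.
mmu-miR-7a-5p: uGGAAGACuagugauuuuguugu
Cyrano site: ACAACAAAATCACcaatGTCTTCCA
A further seed match at base 762 lacked such a run, with 3 paired bases in a row at most beyond the seed. 1700020I14Rik had 198, 251, 138 and 127 CPM, with both mutant values below both wild-type values. The log2 fold change was −0.76 (SE 0.21), and at an edgeR FDR of 0.0703 it did not pass. It passed in 7 of the 16 alternative fits, where its FDR ranged from 0.00229 to 0.550. Mature microRNAs were not measured here.

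2900097C17Rik, the mouse Norad gene (chr2:156388065-156392979, minus strand, 1 exon of 4915 bases), is known to bind Pumilio proteins through repeated copies of the element TGTANATA. On the sense strand 11 matches were counted, or 2.24 per kb, while 36 of the other 51 members held none and the pooled density of those 51 was 0.146 per kb. Neat1 held 4 matches in its far longer sequence, or 0.193 per kb. The highest density among those 51 was 1.30 per kb in AW112010, from 1 match in 770 bases. 2900097C17Rik had 48.2, 58.3, 43.9 and 43.2 CPM. The wild-type libraries differed by 0.28 on the log2 scale, about as much as the groups did. The log2 fold change was −0.29 (SE 0.19, edgeR FDR 0.360), and 0.091 with library totals alone. Bvht had 7.09, 11.6, 12.4 and 10.5 CPM, with the wild-type values on both sides of mutant replicate 2, and a log2 fold change of 0.30 (SE 0.27, edgeR FDR 0.517). Dubr, known from myoblast differentiation, had 5.32, 7.71, 9.17 and 9.28 CPM (log2 fold change 0.50, edgeR FDR 0.242).

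Whole microRNA, small nucleolar or small Cajal body RNA genes lie on the same strand within 6 members, and 0 of the 6 were called by edgeR, DESeq2 or limma-voom. Small RNA genes of other classes or on the other strand, such as the misc_RNA genes in Neat1 and Malat1 and Mir6363 in Dubr, are not counted here. By edgeR 1 of them reached an unadjusted p under 0.05, in the higher direction, and the 6 had a median log2 fold change of 0.39. 6720427I07Rik (chr13:48532905-48546500, minus strand) spans Mirlet7a-1, Mirlet7f-1 and Mirlet7d, 2900076A07Rik spans Mir1839 and Snhg20 spans Mir6516. Gm26532 (chr8:84208920-84209609, plus strand) begins at the end of the Mir24-2 hairpin, the last of the cluster of Mir23a, Mir27a and Mir24-2. The mature microRNAs of these loci are shown from RefSeq (GRCm38.p6) with seeds in capitals.
mmu-let-7a-5p: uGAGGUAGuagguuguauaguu
mmu-let-7f-5p: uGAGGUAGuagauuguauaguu
mmu-let-7d-5p: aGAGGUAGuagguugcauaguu
mmu-miR-1839-5p: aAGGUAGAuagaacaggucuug
mmu-miR-6516-5p: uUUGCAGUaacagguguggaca
mmu-miR-23a-3p: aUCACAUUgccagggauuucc
mmu-miR-27a-3p: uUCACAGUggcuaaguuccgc
mmu-miR-24-3p: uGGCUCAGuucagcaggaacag
The 3 let-7 microRNAs share 1 seed and the other 5 each have their own. The let-7 host 6720427I07Rik had 3.72, 3.98, 6.46 and 4.64 CPM, higher in both mutant libraries but with an edgeR FDR of 0.250 for a log2 fold change of 0.54 (SE 0.28). Gm26532 had 6.06, 5.98, 17.4 and 9.13 CPM. Wild-type values were nearly equal and mutant values were higher and unlike each other, giving a log2 fold change of 1.16 (SE 0.32, edgeR FDR 0.0651).

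The small nucleolar RNA hosts release their guides from introns, and their spliced remainder is known to be short-lived. Snhg12, host of 4 named small nucleolar RNA genes, had 5.03, 3.37, 6.06 and 7.80 CPM (log2 fold change 0.72, SE 0.29, edgeR FDR 0.161). Snhg20 had 11.2, 7.61, 13.1 and 13.7 CPM (0.52, SE 0.24, edgeR FDR 0.208), and Snhg18 had 14.9, 12.6, 14.5 and 18.5 CPM (0.25, SE 0.22, edgeR FDR 0.481). Snhg6 went the other way with 6.63, 3.73, 2.99 and 3.68 CPM (−0.64, SE 0.34, edgeR FDR 0.266). The groups of Snhg12, Snhg20 and Snhg6 did not overlap, and none of the 4 passed. 2900076A07Rik had 11.5, 16.6, 12.5 and 16.7 CPM, with no separation.

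The nearest protein-coding gene was identified for each member, and 42 of the 52 neighbours were tested. Among them 1 was called higher and 4 lower, or 11.9% against 7.37% of all genes tested, and 25 of the 42 pairs had fold changes of the same sign. Across the 42 pairs the log2 fold changes had a Spearman's rho of 0.32 and a Pearson's r of 0.31, a description over pairs that share the same 4 libraries; in 4 of the 42 the spans overlap. The neighbours of the called lincRNAs were not themselves called: Frmd8 beside Neat1 had a log2 fold change of 0.49 (edgeR FDR 0.147), Tbl1xr1 beside Gm43672 0.04 (0.918), Zfp146 beside Gm5113 −0.07 (0.854), Smug1 near Gm49477 −0.70 (0.118) and Hes1 near 4632428C04Rik −0.05 (0.866). Ribc2, near Gm19277, did not pass the filter on low counts. Gm43672 and Tbl1xr1 start 510 bases apart on opposite strands and Gm5113 and Zfp146 125 bases apart.

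The reverse arrangement, a called neighbour beside a member that did not pass, was found at 3 shared starts. Tbx5, a transcription factor of heart development, had 37.7, 42.2, 18.5 and 13.3 CPM (log2 fold change −1.33, edgeR FDR 0.0195). Gm43050, which starts 748 bases from it on the opposite strand, had 6.98, 6.03, 4.51 and 2.80 CPM (−0.80, edgeR FDR 0.131). Both were lower in both mutant libraries. Chrm2, the muscarinic receptor of the heart, had 63.1, 68.5, 32.0 and 29.0 CPM (−1.11, edgeR FDR 0.0200), and its start lies 8 bases from that of 9330158H04Rik. Msi2, an RNA-binding protein gene, had 87.8, 122, 54.6 and 45.9 CPM (−1.06, edgeR FDR 0.0347), and C030037D09Rik starts 132 bases from it. Of the 15 members that start within 1000 bases of a tested protein-coding gene on the opposite strand, 8 pairs were below 0 in both genes, 3 above 0 in both and 4 of opposite sign. Away from shared starts, Lsp1, whose span but not its exons overlaps Prr33, rose (1.35, edgeR FDR 0.0141) and Fsd2, 1810 bases from 2900076A07Rik, fell (−1.01, edgeR FDR 0.0357). Whether the counting used strand is not stated in the labels, so reads from exons that overlap on opposite strands, as in 9330158H04Rik with Chrm2 and Lppos with Lpp, cannot be told apart.

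**Figure D4:**
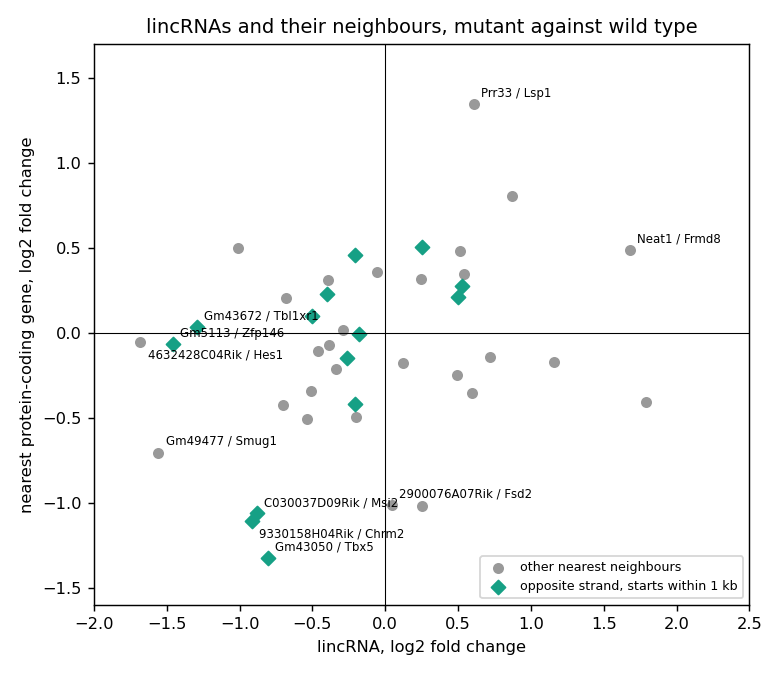
Log2 fold change of each lincRNA (horizontal axis) against that of its nearest protein-coding gene (vertical axis) for the 42 pairs tested, mutant over wild type. Tbx5, Chrm2 and Msi2 lie below 0 with their lincRNAs, and the neighbours of the called lincRNAs lie nearer to 0 than the lincRNAs do.

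Transcript length moved with the libraries. The members' median exonic length was 2455.5 bases against 4131.5 over all genes tested, with a median of 3 exons against 8. Between the wild-type libraries the members' log2 ratio of replicate 2 over replicate 1 had a Spearman's rho of 0.53 with exonic length (n = 52 members, which share both libraries). Over 15280 genes the same rho was 0.43. The 22 members of at least 3000 bases had a median wild-type ratio of 0.56 on the log2 scale and a median log2 fold change of 0.25, with 1 called higher (Neat1) and 1 lower (Gm5113). The 30 shorter members had medians of −0.43 and −0.33, with 0 higher and 4 lower. Called members were thus 9.09% of the longer and 13.3% of the shorter class, against 7.61% and 6.90% of all genes in the same classes. For all genes of at least 3000 bases the median log2 fold change was 0.06, and for shorter genes −0.07. AI480526, with 4.58, 16.2, 16.4 and 13.6 CPM, is a long member for which wild-type replicate 1 alone stood apart. The part of length in the genotype comparison was not tested as a cause. In a fit with offsets for length and GC content 4 members were higher and 8 lower. That fit called 16.4% of all genes, against 7.37% without offsets. The 6 members called without offsets were among those called in it.

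**Figure D5:**
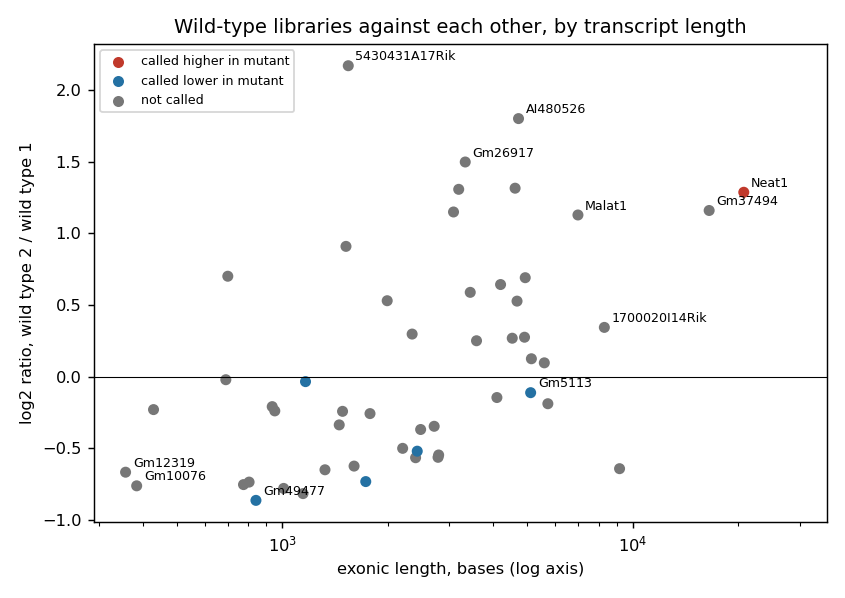
Log2 ratio of wild-type replicate 2 over wild-type replicate 1 (vertical axis) against exonic length in bases (log axis) for the 52 lincRNAs. Longer members tend to lie above 0 and shorter ones below, with medians of 0.56 and −0.43 on either side of 3000 bases.

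Members made up a small and unequal share of the libraries. They held 0.106% and 0.175% of counts in wild type, against 0.253% and 0.264% in the mutant libraries. Malat1, Gm26917 and Neat1 held 56.8% of the members' counts over all libraries, and 30.4%, 51.8%, 65.5% and 66.8% library by library. The summed share therefore follows these 3 genes, while the median member had 629 counts and 38 of the 52 had under 1000. The 35 members whose exons overlap no other annotated gene included all 5 called lower and 0 higher, with a median log2 fold change of −0.27. Neat1 is outside that group because short misc_RNA genes are annotated within it. The remaining members that are not named above did not pass the threshold in either direction.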

How the data were processed

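RNA from mouse heart was sequenced in 4 libraries, prepared by BGI per the labels. FastQC, HISAT2 and the mm10 build are named in the submitters' processing notes; how reads were counted, on which annotation and with or without strand, is not stated there. The authors deposited raw counts per gene, and these were used unchanged. GENCODE M21 (GRCm38) named 54723 of the 54752 rows and supplied biotypes, lengths and coordinates.

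A low-count filter (filterByExpr with defaults) left 15283 genes. TMM scaling was followed by the quasi-likelihood test of edgeR 4.0.16 in R 4.3.3 on genotype alone (2 residual degrees of freedom), adjusted by Benjamini-Hochberg over all genes kept (FDR, threshold 0.05). Wild-type libraries had TMM factors of 0.806 and 0.943 and mutant libraries 1.13 and 1.17, so scaling by library totals shifts every fold change. A floor of 3 counts was 0.135 to 0.257 CPM, counting error only. Mitochondrial transcripts held 27.8% to 33.1% of counts, and the deviation of each library from the mean followed transcript length with Spearman's rho of −0.301, 0.245, 0.182 and −0.0149. Transcripts were compared with BLAST+ 2.17.0.

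Members and gene lists were chosen with earlier results of these data known. Named genes are the called members and their neighbours, the 8 most abundant per kb, a list of known lincRNAs, those at the count threshold, and Carm1. Others, apart from genes of the marker and protein lists, were chosen after their values were seen. Alternatives were other scalings, filters, DESeq2 1.42.0, limma-voom (limma 3.58.1), length and GC offsets, each library left out, a replicate block and other member rules. Steps were tested on simulated data with the same dispersion for every gene and changes set in genes above a minimum level. There edgeR called 35% of 100 genes with a true log2 change of 1 in either direction, and 100% of 100 genes with a change of 2. A gene not called may therefore still differ.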

Additional observations from a re-analysis of the deposited data

How the results depend on the processing

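With DESeq2 size factors, upper-quartile factors, a filter of 1 CPM in 2 libraries, limma-voom or the mitochondrial chromosome left out, the same 6 lincRNA members were called, 1 higher and 5 lower. Library totals gave 4 higher and 0 lower (9.13% of all genes called), no filter on low counts 5 and 9 (9.94%), the DESeq2 Wald test 2 and 7 (11.8%), and length and GC offsets 4 and 8 (16.4%), against 7.37% of all genes as reported. Leaving out single libraries gave 3 to 13 higher and 2 to 18 lower, with the lone library of a group assumed to vary like the other group. A member rule of 100 counts took 115 members with 3 higher and 9 lower, and one of 1000 counts 14 members with 1 and 1. Leaving out overlapping exons left 35 members with 0 and 5. The members' median log2 fold change was 0.22 with library totals, −0.13 with upper-quartile factors and with length and GC offsets, 0.044 and −0.0077 at 100 and 1000 counts, and −0.27 without overlapping exons; it ran from −0.36 to −0.14 without single libraries. A member rule changes which genes are counted; for the other settings the cause was not tested. Depth limits the members with few counts most, such as 4632428C04Rik with 17 in mutant replicate 2.

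The replicate numbers were not taken to pair the libraries. Over the genes tested, the deviations of wild-type and mutant replicate 1 from their group means correlated at −0.2475. With 2 libraries per group, the replicates numbered 2 must give the same value and the crossed pairing 0.2475, so these are not separate observations. A replicate block gave 4 higher and 5 lower members (8% of all genes), and the block with length and GC offsets 5 and 10 (15.2%), with a median log2 fold change of −0.13. A crossed pairing, chosen after seeing the data, gave 9 higher and 13 lower members and 4176 calls over all genes (27.3%).

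Log2 fold changes that changed sign were of genes not called in the comparison as reported. With library totals they were 0.021 for Tmem250-ps, 0.022 for Gm34030, 0.054 for 4632415L05Rik, 0.091 for 2900097C17Rik, 0.14 for Fam120aos, 0.15 for 4930429F24Rik, 0.17 for Gm12295, 0.21 for Lppos, 0.24 for 1700096K18Rik and 2010320M18Rik, 0.32 for Zfp146, 0.34 for Hes1, 0.35 for AW112010 and 0.36 for 1810058I24Rik. Zfp469 was −0.00027 by the DESeq2 Wald test and −0.090 with length and GC offsets, where Tbl1xr1 was −0.092. With the replicate block added to the offsets Tbl1xr1 was −0.092 and 1810058I24Rik 0.011, and Hes1 was 0.0041 with upper-quartile factors. Without single libraries the ranges were −0.35 to 0.23 for 1810058I24Rik, −0.56 to 0.25 for 2010320M18Rik, −0.22 to 0.29 for 2900076A07Rik, −0.60 to 0.30 for 4930429F24Rik, −0.12 to 1.68 for AI480526, −0.28 to 1.03 for AU020206, −0.56 to 0.32 for AW112010, −0.021 to 0.66 for Bvht, −0.53 to 0.027 for Gm12295, −0.025 to 0.55 for Gm20300, −0.40 to 0.91 for Gm43597, −0.52 to 0.13 for Lppos, −0.040 to 0.095 for Tbl1xr1 and −0.46 to 0.68 for Zfp469.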
